A study of Nothobranchius furzeri with 168 samples.

Results

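Whether gene expression changed with age to the same extent in brain and in skin was asked in MZM-0403, one of the longer-lived strains of the turquoise killifish (Nothobranchius furzeri), from RNA sequencing libraries of both tissues of the same males. The contrast is the age change in brain minus the age change in skin, that is, day 287 minus day 35 in brain, less day 287 minus day 35 in skin. It uses 22 of the 168 libraries of the series, from 11 of its 84 fish: 6 males sampled at day 287 and 5 males sampled at day 35, each giving a brain and a skin library. The labels give no treatment or genotype beyond the strain, and how the fish were kept is not given in the sources used here. Fish of the 2 ages are different animals, and no sequencing batch or date is given, so age and any difference in handling cannot be told apart. The same contrast was computed for comparison in GRZ-D, the short-lived strain, in 6 males of day 147 and 6 of day 35, and in MZCS-0403, the other longer-lived strain, in 3 males of day 147 and 4 of day 39. Other fish served to list genes and to follow their levels. In MZM-0403 they were 6 males of day 21 and 5 females of day 147, and in GRZ-D 8 males of day 21 and 7 of day 100. In MZCS-0403 they were 6 males of day 21, 2 males of day 287, 1 female of day 147 and 5 females of day 217.

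Turquoise killifish live in ponds that dry out each year, and they mature and age faster than most vertebrates kept in laboratories. The fish brain is made of neurons and glia, and radial glia go on making neurons in the adult. Fish skin is a layered epidermis that renews itself over a dermis with scales and pigment cells. A change with age in only one of such tissues appears in this contrast, and a change of the same size in both does not. The gene IDs of the table (Nfu_g_1_ and a number) come without names, and of its 26739 IDs 0 were found among the RefSeq genes of assembly NfurGRZ-RIMD1. Each gene is thus called by its ID, without role, position or sequence, and no list by function or cell type could be applied. In whole tissue, fewer cells of a type and less RNA per cell cannot be told apart, and this holds for every value below.

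The libraries held between 16861758 and 39239438 counts assigned to genes. The 10 most counted genes held 4.49% to 5.37% of the counts in brain and 15.8% to 23.7% in skin. Every library resembled its labelled tissue: its correlation across genes with the mean profile of that tissue in 6 MZM-0403 males of day 21 was 0.919 to 0.973, and with the profile of the other tissue 0.456 to 0.595. Some libraries stood apart from their group. Brain replicate 7 of day 35 had a mean correlation of 0.934 with the other brains of its age, and the brain next to it 0.961. Brain replicate 3 of day 287 and skin replicate 4 of day 35 were the lowest of their groups, at 0.968 and 0.934. The brain libraries of day 35 replicates 7, 12 and 13 also carried more counts of genes typical of skin than the other brains, as given below with the genes concerned.

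Age changed expression differently in brain and skin for 5091 of 21492 genes tested, or 23.7%, by edgeR's quasi-likelihood test with fish as block and a Benjamini-Hochberg adjusted p under 0.05. The difference was positive, toward higher expression in brain relative to skin at day 287, in 2711 genes (12.6% of those tested) and negative in 2380 (11.1%). It was at least 2-fold in 2541 of them, 1330 positive and 1211 negative. The balance of signs depended on how libraries were scaled. Positive genes made up 53.3% of the called genes with TMM scaling and 40.9% with RLE size factors, which shifted the median difference of all genes by -0.10 on the log2 scale. The called genes were spread over all levels of abundance, from 12.5% of the least abundant quartile of tested genes to 30.1% of the most abundant quartile.

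For most of these genes the larger change was in skin. In brain 5176 genes (24.1%) changed with age, 2417 upward (11.2%) and 2759 downward (12.8%). In skin 8364 genes (38.9%) changed, 3799 upward (17.7%) and 4565 downward (21.2%). Changes of at least 2-fold numbered 1332 in brain and 3892 in skin. Fish of the same age also varied more in skin. The median biological coefficient of variation was 0.19 in brain and 0.286 in skin. What part this spread has in the larger skin changes was not tested. The skin change was larger in size than the brain change in 83.5% of the 5091 genes, and in 68.7% of all genes tested. Brain and skin changes were related across the 21492 genes, with Pearson's r of 0.318 and Spearman's rho of 0.341. The libraries of both tissues come from the same fish, and genes are not independent replicates. Of 2511 genes changed in both tissues, 2189 (87.2%) changed in the same direction, 917 upward and 1272 downward. Over all 21492 genes tested, 63.8% had a change of the same sign in both tissues.

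**Figure D1:**
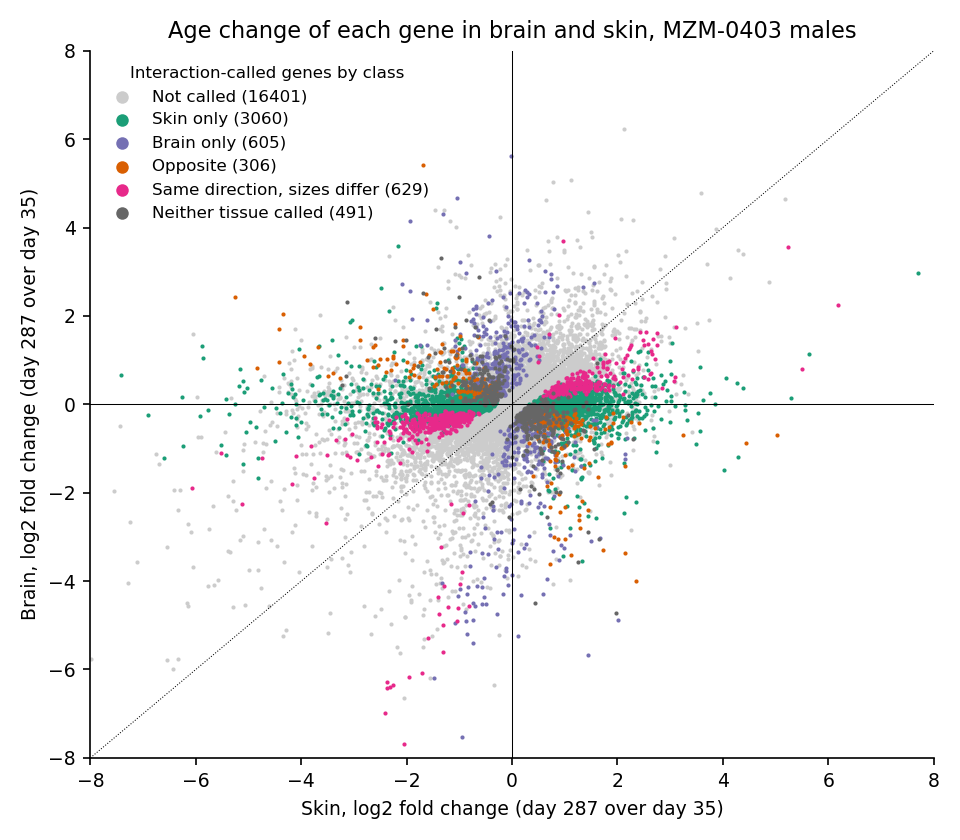
Age change of each of the 21492 tested genes in brain (vertical axis) and in skin (horizontal axis), both as log2 fold change of day 287 over day 35 in MZM-0403 males. Each point is a gene, colours mark the classes of the 5091 genes whose change differed between the tissues, and 11 genes lie outside the axes. The 3060 genes changed in skin only form the band along the horizontal axis, and the dotted line marks equal changes.

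By the tissue in which each gene was called, the 5091 genes fell into 6 classes. A change in one tissue only means that the other tissue missed the threshold. For comparison, 38.9% of all 21492 genes tested were called in skin and 24.1% in brain, 2511 genes being called in both. Both shares include those 2511 genes. They thus lie above the shares of all genes called in one tissue only, and are not like values for the one-tissue classes. Of all 21492 genes, 322 were called in both tissues with opposite signs. The largest class, 3060 genes or 60.1%, changed in skin only, 1687 downward and 1373 upward. A further 605 genes (11.9%) changed in brain only, 317 upward and 288 downward, a count that was 401 without day 287 replicate 4. In 598 genes (11.7%) both tissues changed in the same direction with the larger change in skin, and in 31 (0.609%) with the larger change in brain. In 306 genes (6.01%) the changes were opposite. In 491 genes (9.64%) neither tissue was called alone.

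The genes that rose in skin only took a larger share of the skin transcriptome in older fish. In brain they held 8.15% to 8.78% of a library's counts at day 287 and 8.15% to 8.91% at day 35. In skin the same genes held 18.8% to 25.3% at day 287 (median 19.3%) and 8.08% to 12.1% at day 35 (median 8.24%). The genes that fell in skin only held 6.60% to 7.27% of brain counts at day 287 and 6.55% to 7.23% at day 35, and 2.55% to 3.05% of skin counts at day 287 and 4.80% to 5.89% at day 35. These shares describe genes chosen for changing this way and are no test. For the genes that rose in skin only the median log2 change was -0.03 in brain and 0.97 in skin, and for those that fell -0.05 in brain and -1 in skin.

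Named genes were taken by a rule from those whose difference passed the threshold in the full fit and in each fit without a fish, and whose brain-minus-skin differences did not overlap between the 6 older and the 5 younger fish. Both conditions together held for 2441 genes, 11.4% of those tested. Their levels are CPM, the counts of a gene scaled to a common library size with TMM, and changes and differences are on the log2 scale. The difference between the tissues comes from the fit with fish as block, and the change in each tissue from a separate fit. The difference thus need not equal the brain change less the skin change, least of all where single libraries stand apart.

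Among the 557 genes that met the rule and rose in skin and not in brain, Nfu_g_1_016796 changed most. In brain it had 33.6 to 55.2 CPM at day 287 (median 41.9) and 25.2 to 39.3 CPM at day 35 (median 34.5). Its skin level ran from 4.61 to 89.1 CPM at day 287 (median 42.5), against 1.58, 1.96, 2.34, 1.76 and 2.72 CPM at day 35 in replicates 12, 13, 2, 4 and 7. All 6 older skins lay above all 5 younger ones, and replicate 6, at 4.61 CPM, was far below the other 5 older skins, which began at 32.0 CPM. The age change was 0.36 ± 0.13 (SE) in brain, with an adjusted p of 0.0693, and 4.38 ± 0.57 in skin, with an adjusted p of 0.000161. The difference between the tissues was -3.72 ± 0.53 (adjusted p = 0.000815). Brain was above skin by 0.29 at day 287 (adjusted p = 0.445) and by 4.01 at day 35 (adjusted p = 1.8e-06).

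Nfu_g_1_022778 also rose in skin, and at day 287 it was higher in skin than in brain. Brains had 5.56 to 7.44 CPM at day 287 (median 6.52), against 7.82, 7.13, 4.61, 6.04 and 12.2 CPM at day 35 in replicates 12, 13, 2, 4 and 7. Skins had 10.4 to 22.8 CPM at day 287 (median 13.7), against 0.847, 0.825, 1.8, 1.03 and 1.86 CPM at day 35. The skin groups did not overlap, and the older brains lay within the range of the younger ones. The brain change was -0.20 ± 0.20 (adjusted p = 0.497), the skin change 3.53 ± 0.31 (adjusted p = 2.5e-05) and their difference -3.67 ± 0.32 (adjusted p = 8.7e-05).

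Of the 632 genes that met the rule and fell in skin and not in brain, Nfu_g_1_018652 changed most. In brain its ages overlapped, at 7.48 to 12 CPM at day 287 (median 9.66) and 5.88 to 11.7 CPM at day 35 (median 8.79). Its skin level was 0 to 0.451 CPM at day 287 (median 0.112), from at most 11 counts in a library, against 2.91, 24.5, 0.346, 35.4 and 3.15 CPM at day 35 in replicates 12, 13, 2, 4 and 7. The younger skins differed widely among themselves, and replicate 2 of day 35, at 0.346 CPM, lay within the older group. The brain change was 0.17 ± 0.18 (adjusted p = 0.5). The skin change was -6.27 ± 1.1 (adjusted p = 0.001), and the difference between the tissues 5.35 ± 1.11 (adjusted p = 0.00587).

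Nfu_g_1_011837 was clearer. Brains had 145 to 185 CPM at day 287 (median 166) and 161 to 210 CPM at day 35 (median 178). Skins had 0.251 to 2.22 CPM at day 287 (median 0.546), against 37.5, 61.4, 61.6, 11.6 and 27.7 CPM at day 35 in replicates 12, 13, 2, 4 and 7. The brains overlapped, and the lowest younger skin was more than 5 times the highest older one. The brain change was -0.14 ± 0.09 (adjusted p = 0.276), the skin change -5.77 ± 0.55 (adjusted p = 3.1e-05) and the difference 5.56 ± 0.51 (adjusted p = 9.4e-05).

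Under the same rule 68 genes rose and 43 fell in brain and not in skin. In the brain-only class of the contrast, the median brain change was 0.95 for the 317 genes that rose and -0.96 for the 288 that fell. Nfu_g_1_001379 had 5.16 to 13.2 CPM in brain at day 287 (median 8.61), against 1.82, 2.27, 1.64, 0.877 and 1.40 CPM at day 35 in replicates 12, 13, 2, 4 and 7. All older brains lay above all younger ones. Skin had much more of it, at 61.8 to 202 CPM at day 287 (median 120) and 65.5 to 188 CPM at day 35 (median 97.1), with overlapping ranges. Its brain change was 2.54 ± 0.29 (adjusted p = 0.000345) and the difference 2.22 ± 0.42 (adjusted p = 0.00353). This gene was among those far higher in skin than in brain at day 21, by 7.36 on the log2 scale.

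Nfu_g_1_017037 had 5.23 to 80.2 CPM in brain at day 287 (median 8.56), against 3.18, 1.32, 1.45, 1.15 and 5.45 CPM at day 35 in replicates 12, 13, 2, 4 and 7. The value of 80.2 CPM was brain replicate 3, the brain that stood apart from its group, and the other older brains had at most 9.72 CPM. The lowest older brain lay below the highest younger one. Its brain change of 3.01 ± 0.85 (adjusted p = 0.0249) did not pass the threshold without day 35 replicate 13, 2 or 4 (adjusted p = 0.06, 0.0546 and 0.055). Without day 287 replicate 3 it was 1.66 (adjusted p = 0.0201). The difference between the tissues was 2.73 ± 0.63 (adjusted p = 0.00995). Without day 35 replicates 7, 12 and 13 together it was no smaller, at 2.97, but failed the threshold (adjusted p = 0.0682).

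The 2 genes that led the falls in brain each had a far higher value in 1 young brain than in the others. At day 21 their log2 brain-minus-skin differences were -8.47 for Nfu_g_1_024908 and -5.69 for Nfu_g_1_000441, so both were far higher in skin. Nfu_g_1_024908 had 8.63 to 13.4 CPM in brain at day 287 (median 9.40), against 164, 19.6, 29.4, 26.2 and 17.7 CPM at day 35 in replicates 12, 13, 2, 4 and 7. The groups did not overlap, and replicate 12 was more than 5 times the next young brain. Its level in skin was 5480 to 8600 CPM at day 287 (median 6560) and 3880 to 6000 CPM at day 35 (median 4540). The skin change was 0.5 ± 0.19 and missed the threshold narrowly (adjusted p = 0.0521). The brain change was -2.32 ± 0.56 (adjusted p = 0.0127), and -1.19 (adjusted p = 0.00214) without replicate 12. With all 84 brain libraries in the fit it missed the threshold (adjusted p = 0.057). The fits with all 84 libraries of a tissue, here and below, include some libraries that resembled the other tissue. The difference between the tissues was -2.18 ± 0.47 (adjusted p = 0.00727). Without replicates 7, 12 and 13 of day 35 the difference was -1.91 (adjusted p = 0.00318). Nfu_g_1_000441 had 2.81 to 8.08 CPM in brain at day 287 (median 5.63), against 11.5, 11.7, 28.4, 7.67 and 78.3 CPM at day 35. The highest value was replicate 7, and 1 young brain, replicate 4, lay within the older range. The difference between the tissues was -1.68 ± 0.36 (adjusted p = 0.00674), and without these 3 fish -1.43 (adjusted p = 0.0828).

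**Figure D2:**
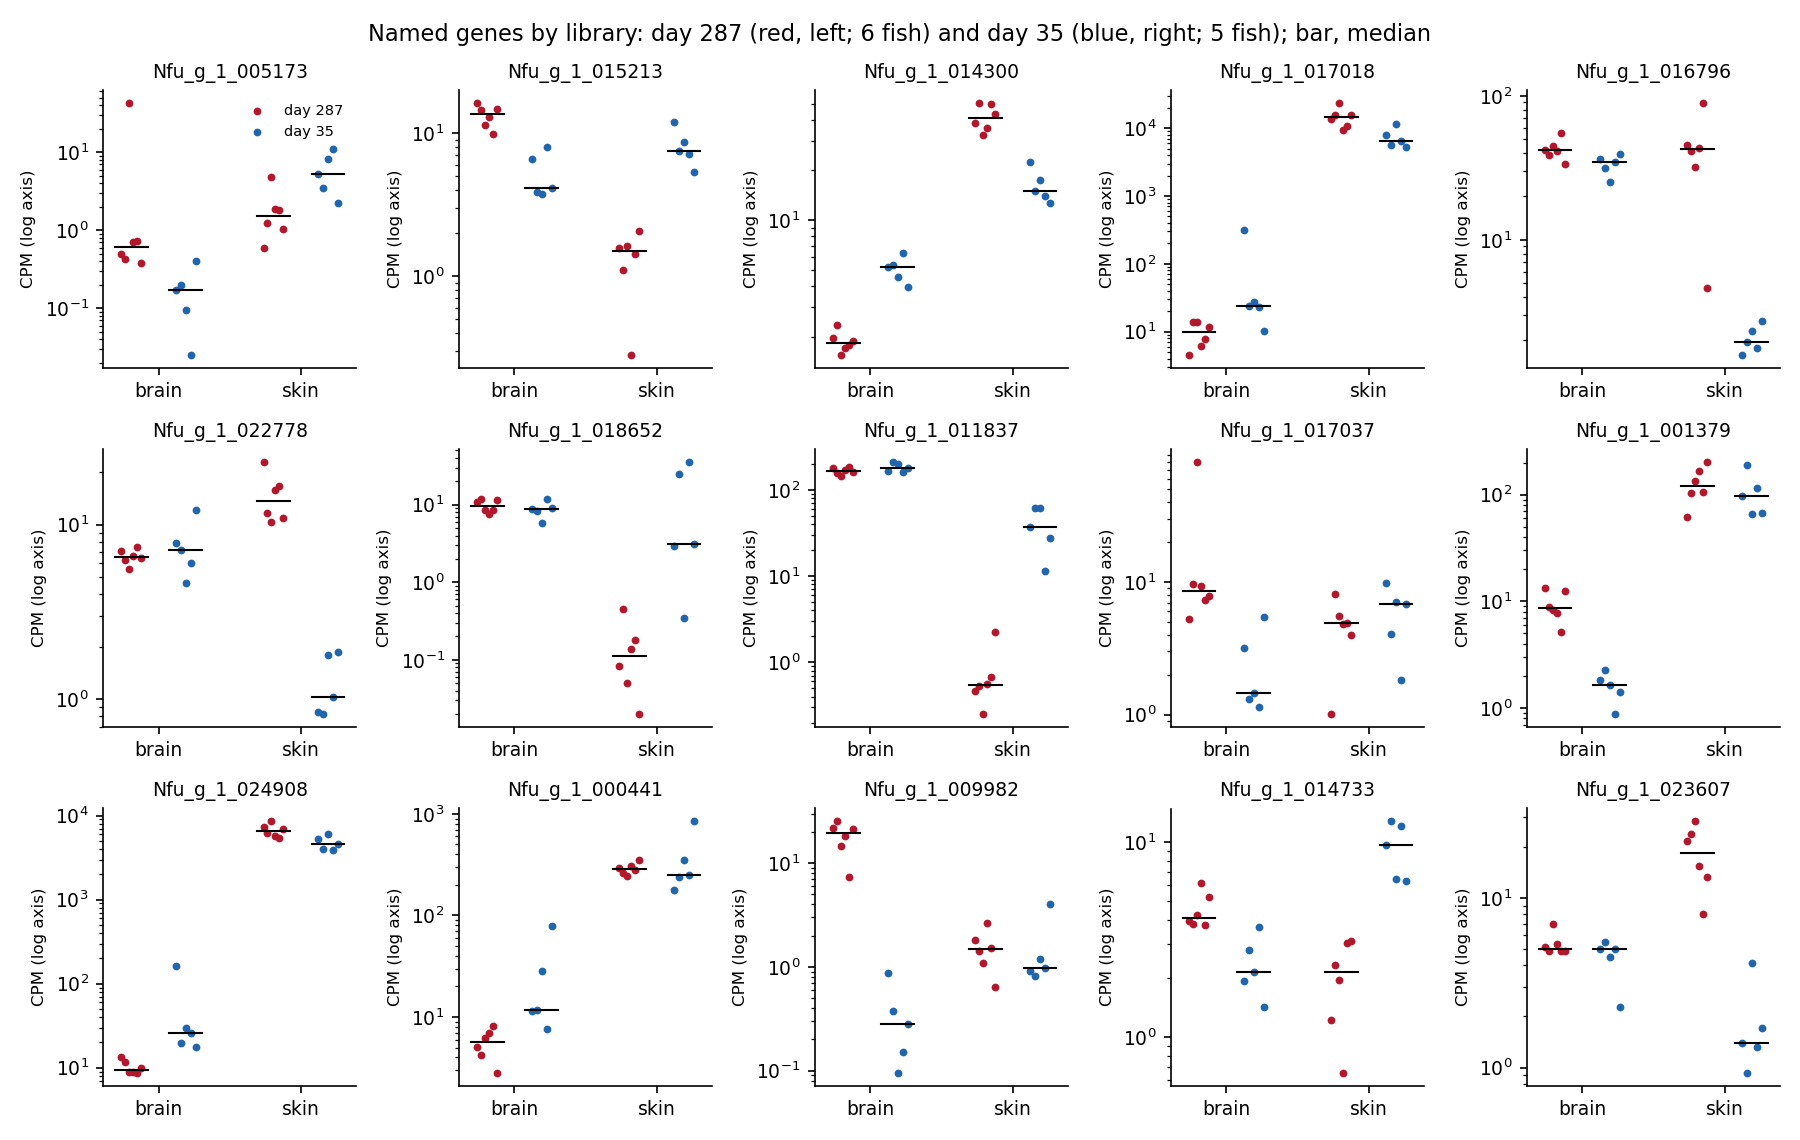
CPM of the 15 named genes in each library, on log axes, with brain on the left and skin on the right of each panel, day 287 in red left of day 35 in blue, and bars at the group medians. A value of 0 CPM, in 1 older skin of Nfu_g_1_018652, is drawn at the bottom of its panel. In the panels of Nfu_g_1_005173 and Nfu_g_1_017037 a single older brain stands at 42.6 and 80.2 CPM, far above the others.

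Opposite changes were found in 306 genes, 150 that rose in brain and fell in skin and 156 that fell in brain and rose in skin. The median changes of the first kind were 0.60 in brain and -1.01 in skin, and of the second -0.50 in brain and 0.88 in skin. The count of 306 depended on the fish in the fit. It was 514 without day 35 replicate 7 and 200 without day 35 replicate 13. It was 185, 191, 166 and 202 without day 287 replicate 1, 2, 4 or 6.

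Nfu_g_1_014300 changed by a like amount in either tissue. Brains had 1.55 to 2.34 CPM at day 287 (median 1.83), against 5.20, 5.34, 4.55, 6.39 and 3.95 CPM at day 35 in replicates 12, 13, 2, 4 and 7. Skins had 32.5 to 50.3 CPM at day 287 (median 40.7), against 22.4, 15.0, 17.5, 13.9 and 12.7 CPM at day 35. The ages did not overlap in either tissue. The brain change was -1.44 ± 0.15 (adjusted p = 0.000231), the skin change 1.36 ± 0.18 (adjusted p = 0.000162) and the difference -2.79 ± 0.19 (adjusted p = 3.7e-05).

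Nfu_g_1_015213 changed the other way. Brains had 9.87 to 16.2 CPM at day 287 (median 13.7), against 6.58, 3.86, 3.73, 8.02 and 4.14 CPM at day 35 in replicates 12, 13, 2, 4 and 7. Skins had 0.280 to 2.06 CPM at day 287 (median 1.5), against 11.9, 7.47, 8.60, 7.09 and 5.30 CPM at day 35. Again no older value overlapped a younger one in either tissue. The changes were 1.34 ± 0.22 in brain (adjusted p = 0.00226) and -2.59 ± 0.37 in skin (adjusted p = 0.000277), with a difference of 4.03 ± 0.43 (adjusted p = 0.000205).

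The size of the brain change of the other 2 genes named for opposite changes depended on single libraries. Nfu_g_1_005173 had 42.6 CPM in brain replicate 3 of day 287 and 0.375 to 0.729 CPM in the other 5 older brains, against 0.17, 0.197, 0.0948, 0.0251 and 0.405 CPM at day 35 in replicates 12, 13, 2, 4 and 7. Its fitted brain change of 5.42 ± 1.68 (adjusted p = 0.0367) did not pass the threshold without any given day 35 fish (adjusted p = 0.0631 to 0.0768). Without brain replicate 3 of day 287 the change was 1.63 (adjusted p = 0.046). Skins had 0.591 to 4.77 CPM at day 287 and 2.22 to 11.1 CPM at day 35, with overlapping ranges and a change of -1.69 ± 0.51 (adjusted p = 0.0207). The skin call was lost without day 35 replicate 4 (-1.35, adjusted p = 0.0562) and with all 84 libraries of the tissue in the fit (adjusted p = 0.0716). The difference between the tissues was 4.47 ± 1.1 (adjusted p = 0.013) with fish as block, and 7.09 (adjusted p = 0.00417) without the block. Nfu_g_1_017018 had 4.52 to 13.9 CPM in brain at day 287 (median 9.85), against 316, 23.9, 27.2, 22.9 and 10.3 CPM at day 35, where replicate 12 was again the highest and replicate 7 lay within the older range. It was among the most abundant genes of skin, at 9500 to 23400 CPM at day 287 and 5190 to 11700 CPM at day 35. Its log2 brain-minus-skin difference at day 21 was -10.03. Its fall in brain was -3.04 ± 0.84 (adjusted p = 0.0232), -1.13 (adjusted p = 0.0472) without replicate 12 and -1.39 (adjusted p = 0.0472) without replicates 7, 12 and 13. Its change in skin was 1 ± 0.28 (adjusted p = 0.0142), and 0.70 (adjusted p = 0.173) without these 3 fish. It also missed the threshold with all 84 skin libraries in the fit (adjusted p = 0.108).

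A change of the order of the tissues in all fish was rare among genes that met the rule. By at least 2-fold on average, 3 genes were higher in skin at day 35 and higher in brain at day 287. The reverse held for 4 genes. Nfu_g_1_009982 had 7.38 to 25.4 CPM in brain at day 287 (median 19.7), against 0.874, 0.374, 0.0948, 0.15 and 0.28 CPM at day 35 in replicates 12, 13, 2, 4 and 7. Skins had 0.635 to 2.66 CPM at day 287 (median 1.48) and 0.825 to 4.01 CPM at day 35 (median 0.969). The older brains lay far above the younger ones and the skins overlapped. The brain change was 5.63 ± 0.51 (adjusted p = 0.000128), the skin change -0.02 ± 0.47 (adjusted p = 0.982) and the difference 5.57 ± 0.71 (adjusted p = 0.000488). Nfu_g_1_014733 had 3.74 to 6.14 CPM in brain at day 287 and 1.43 to 3.66 CPM at day 35, and in skin 0.654 to 3.1 CPM at day 287 and 6.31 to 12.8 CPM at day 35. Neither tissue overlapped between the ages. The brain change was 0.91 ± 0.23 (adjusted p = 0.0163) and the skin change -2.2 ± 0.36 (adjusted p = 0.000618), so this gene too was among the opposite changes. Its brain call was lost in 3 of 18 alternatives (adjusted p up to 0.156). The difference between the tissues was 3.22 ± 0.44 (adjusted p = 0.000632). Higher in skin at day 287 were Nfu_g_1_022778, described above, and Nfu_g_1_023607. Nfu_g_1_023607 had 4.84 to 7.05 CPM in brain at day 287 and 2.27 to 5.52 CPM at day 35, and in skin 8.06 to 28.3 CPM at day 287 and 0.928 to 4.11 CPM at day 35. Its difference was -3.02 ± 0.45 (adjusted p = 0.001).

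To see whether the tissues' own genes were concerned, genes were listed by their difference between brain and skin in the 6 males of day 21, which are not in the contrast. Brain-dominant genes were 3030 genes higher in brain by at least 3 on the log2 scale, skin-dominant genes were 2190 higher in skin by as much, and 8639 balanced genes differed by less than 1. In those day 21 fish 16957 of 20177 genes (84%) differed between the tissues, 44.1% higher in brain and 39.9% higher in skin. Among skin-dominant genes 189 (8.63%) had a positive and 371 (16.9%) a negative difference, with a median of -0.31, beside 12.6%, 11.1% and a median of 0.04 over all genes tested. Among brain-dominant genes 166 (5.48%) were positive and 330 (10.9%) negative, with a median of -0.16, which was 0.05 without day 35 replicates 7, 12 and 13. Among balanced genes 1410 (16.3%) were positive and 881 (10.2%) negative, with a median of 0.10, which was 0 with RLE size factors.

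In skin, balanced genes fell more often than they rose, 2444 (28.3%) against 1355 (15.7%), with a median change of -0.12. Skin-dominant genes rose there more often than they fell, 573 (26.2%) against 415 (18.9%), with a median of 0.06. In brain, skin-dominant genes fell in 366 cases and rose in 210, with a median of -0.17 and an interquartile range from -1.07 to 0.41, while brain-dominant genes had a median of -0.06. The day 35 brains differed in this respect. Skin-dominant genes summed to 12380 to 15987 CPM in the 6 brains of day 287, against 25855, 50348, 16507, 11352 and 24941 CPM in brain replicates 12, 13, 2, 4 and 7 of day 35. Replicate 4 lay below all older brains and the other 4 above them, by the most in replicates 13, 12 and 7. Without these 3 fish, chosen after seeing the data, the median change of skin-dominant genes in brain was 0.17, with 137 falls and 205 rises, and their median difference between the tissues was -0.08. The 3 fish were those with the highest sums, so leaving them out was bound to move the brain change of these genes upward. Only replicates 2 and 4 then remained at day 35. The direction of the list in brain thus depended on which young fish were used, and these fits cannot settle it. What these counts of skin-dominant genes in the 3 brains come from was not tested.

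**Figure D3:**
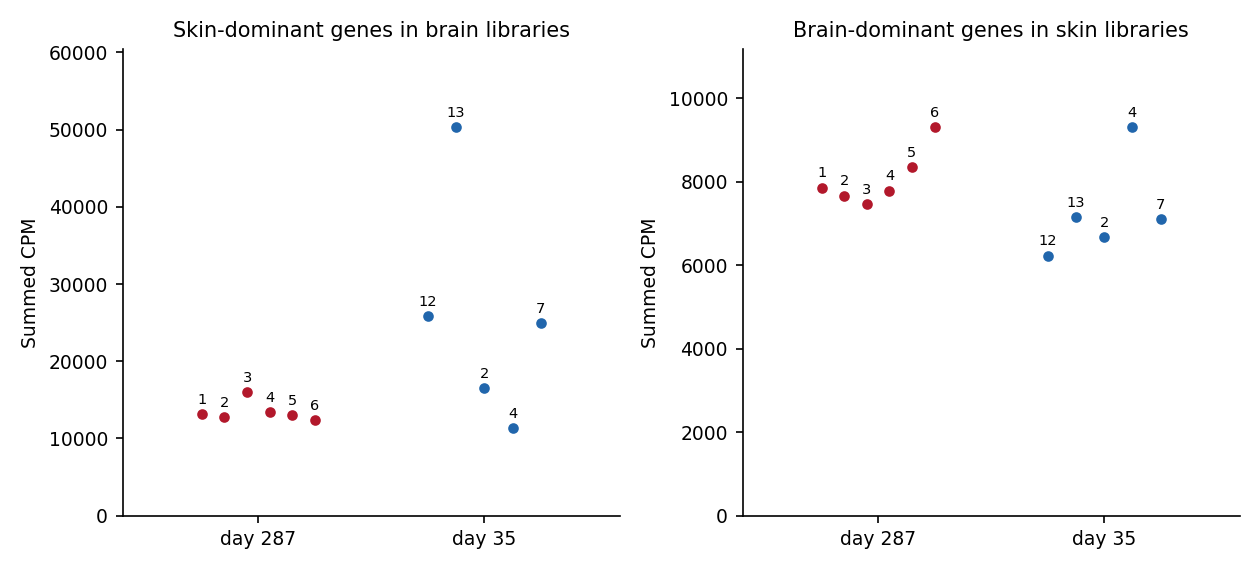
Summed CPM of the 2190 skin-dominant genes in each brain library (left) and of the 3030 brain-dominant genes in each skin library (right), with day 287 in red left of day 35 in blue and replicate numbers above the points. Brain replicates 2, 7, 12 and 13 of day 35 stand above all brains of day 287, while the skins of both ages overlap between 6225 and 9314 CPM.

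**Figure D4:**
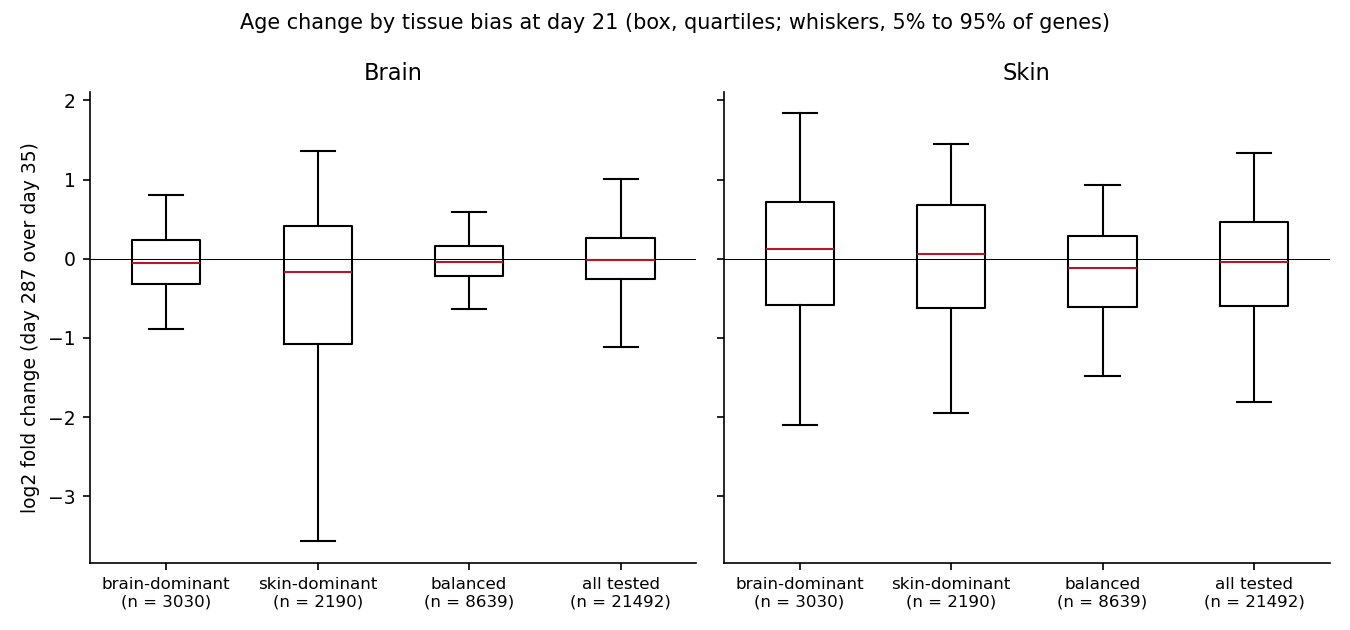
Age change (log2 fold change, day 287 over day 35) in brain and in skin by the bias of a gene between the tissues at day 21. Boxes show the quartiles with the median in red, and whiskers run from 5% to 95% of the genes. The box of skin-dominant genes in brain reaches from -1.07 to 0.41, wider and lower than that of all tested genes, from -0.26 to 0.27.

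Skin-dominant genes also made up most of the genes that fell in both tissues with the larger change in brain. Of these 25 genes, 24 were skin-dominant at day 21, beside 2190 of all 21492 genes tested. The day 35 brains with high sums of skin-dominant genes are among the libraries that chose the 25, so the count is a description. The 25 genes held 0.00838% to 0.0561% of brain counts at day 287 and 0.0654% to 2.34% at day 35, and 7 of the 25 kept their call without each single fish. Over the whole contrast, 3911 genes were called without the 3 fish, and 3030 of them were among the 5091, or 59.5% of those. Skin-only changes numbered 2595 in that fit, brain-only changes 391 and opposite changes 186.

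Most genes differed between the tissues at either age. Brain and skin differed in 16910 genes (78.7%) at day 287, of which 8648 (40.2%) were higher in brain and 8262 (38.4%) higher in skin, and in 16653 (77.5%) at day 35, of which 7768 (36.1%) were higher in brain and 8885 (41.3%) in skin. How far the tissues of a fish lay apart did not pass a test between the ages. The correlation across genes between the brain and the skin of a fish was 0.519 ± 0.0133 at day 287 (SD, n = 6) and 0.524 ± 0.0168 at day 35 (n = 5), with a difference of -0.00546 and a 2-sided exact permutation p of 0.552. The root mean square of the log2 CPM difference was 2.83 ± 0.0473 at day 287 and 2.80 ± 0.0325 at day 35 (exact permutation p = 0.165, or 0.33 adjusted over both measures). The smallest p that 6 against 5 fish allow is 0.00216. The measures depended on the genes and fish used. Over genes with a mean log2 CPM above 3 the correlation at day 287 less that at day 35 was -0.0333 (exact permutation p = 0.0238), and without day 287 replicate 6 the root mean square was higher by 0.0535 (exact permutation p = 0.0397).

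The same contrast in the other strains gives an account in other fish, with other end ages. In GRZ-D 6973 of 21383 genes (32.6%) had an age change that differed between the tissues, and in MZCS-0403 7802 of 21681 (36%). Across 20872 genes tested in both, the difference in MZM-0403 was related to that in GRZ-D with Pearson's r of 0.38 and Spearman's rho of 0.408, and across 21108 genes to that in MZCS-0403 with r of 0.192 and rho of 0.287. Genes called in MZM-0403 and GRZ-D numbered 2242, which is 44.5% of the MZM-0403 calls and 32.7% of the GRZ-D calls, and 2084 of them had the same sign. With MZCS-0403 they numbered 2282, or 45.2% and 30% of the calls, of which 2034 had the same sign. In all 3 strains 1120 genes were called with the same sign, 727 positive and 393 negative.

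The classes differed in how many of their genes were called with the same sign in GRZ-D, where 17.6% of all genes were positive and 15% negative. Of 148 genes with a rise in brain and a fall in skin in MZM-0403 that were tested in GRZ-D, 83 (56.1%) were positive there and 2 negative. In MZCS-0403, where 19.8% of all genes were positive and 16.2% negative, 73 of 150 such genes were positive and 11 negative. For genes that fell in skin only it was 807 of 1670 (48.3%), with 36 of the other sign, and for genes that rose in skin only 540 of 1364 (39.6%), with 41 of the other sign. For genes that fell in brain and rose in skin it was 67 of 155 (43.2%), with 4 of the other sign. For genes that rose in brain only it was 134 of 313 (42.8%), with 14 of the other sign, and for those that fell in brain only 58 of 282 (20.6%), with 19 of the other sign. Of the 25 genes with the larger fall in brain, 0 had the same sign in GRZ-D and 4 had the other.

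The difference between the strains was tested in a single fit of both. The contrast differed between MZM-0403 and GRZ-D in 2310 of 22309 genes (10.4%), being more positive in MZM-0403 in 1080 (4.84%) and more negative in 1230 (5.51%). The total was 3552 without day 35 replicate 7 of MZM-0403. Of the 5091 genes called in MZM-0403, 1018 (20%) were among them. Of the 15 named genes, 5 differed. Both sets were chosen for their contrast in the same MZM-0403 libraries, which favours a difference from GRZ-D. Their shares are a description and cannot be weighed against the 10.4% of all genes. Nfu_g_1_011837 differed most, by 6.02 (adjusted p = 5.8e-07). Its contrast was 5.56 in MZM-0403 and -0.47 in GRZ-D, where its skin level rose by 0.89 with age instead of falling. Nfu_g_1_016796 differed by -2.93 (adjusted p = 0.00429), with a skin rise of 4.38 in MZM-0403 and 1.04 in GRZ-D. Nfu_g_1_015213 differed by 2.34 (adjusted p = 0.0141), Nfu_g_1_014733 by 2.25 (adjusted p = 0.0299) and Nfu_g_1_023607 by -2.24 (adjusted p = 0.0452). Nfu_g_1_014300 was close between the strains, at -2.79 in MZM-0403 and -2.76 in GRZ-D (adjusted p of the difference = 0.949), with a brain change of -1.76 and a skin change of 1.05 in GRZ-D. In MZCS-0403 the contrast had the MZM-0403 sign and was called for Nfu_g_1_011837 (1.69, adjusted p = 0.00103) and Nfu_g_1_023607 (-4.08, adjusted p = 0.000114). It was not called there for Nfu_g_1_016796 (-0.16), Nfu_g_1_015213 (-0.22) or Nfu_g_1_014733 (-0.13). A difference from GRZ-D thus does not make a gene particular to MZM-0403.

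When the contrast was followed over the ages sampled, the called genes were summarised in each fish by the median brain-minus-skin log2 CPM difference of the 2711 positive genes less that of the 2380 negative genes. In MZM-0403 this gap was -0.30 to -0.04 in 6 males of day 21 (median -0.16), -0.83 to -0.46 in the 5 males of day 35 (median -0.79), -0.77 to -0.20 in 5 females of day 147 (median -0.60) and 0.79 to 1.29 in the 6 males of day 287 (median 1.01). The day 35 and day 287 fish chose the genes, so their values are a description. The day 21 fish lay between the ages of the contrast and overlapped neither. The only fish of this strain between day 35 and day 287 were females, which lay near the day 35 males, so sex and age cannot be told apart there.

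In GRZ-D males, none of which chose the genes, the gap was -0.81 to -0.47 in fish of day 21, -0.54 to -0.25 in fish of day 35, 0.29 to 0.64 in fish of day 100 and 0.05 to 1.08 in fish of day 147. All 13 males of day 100 and day 147 lay above all 14 younger males. In MZCS-0403 males it was -1.33 to -0.09 in fish of day 21, -0.65 to -0.04 in those of day 39, 0.80 to 1.05 in those of day 147 and 0.45 to 0.56 in the 2 fish of day 287, and in its females it was 0.50 in the 1 fish of day 147 and -0.17 to 0.40 in the 5 fish of day 217.

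**Figure D5:**
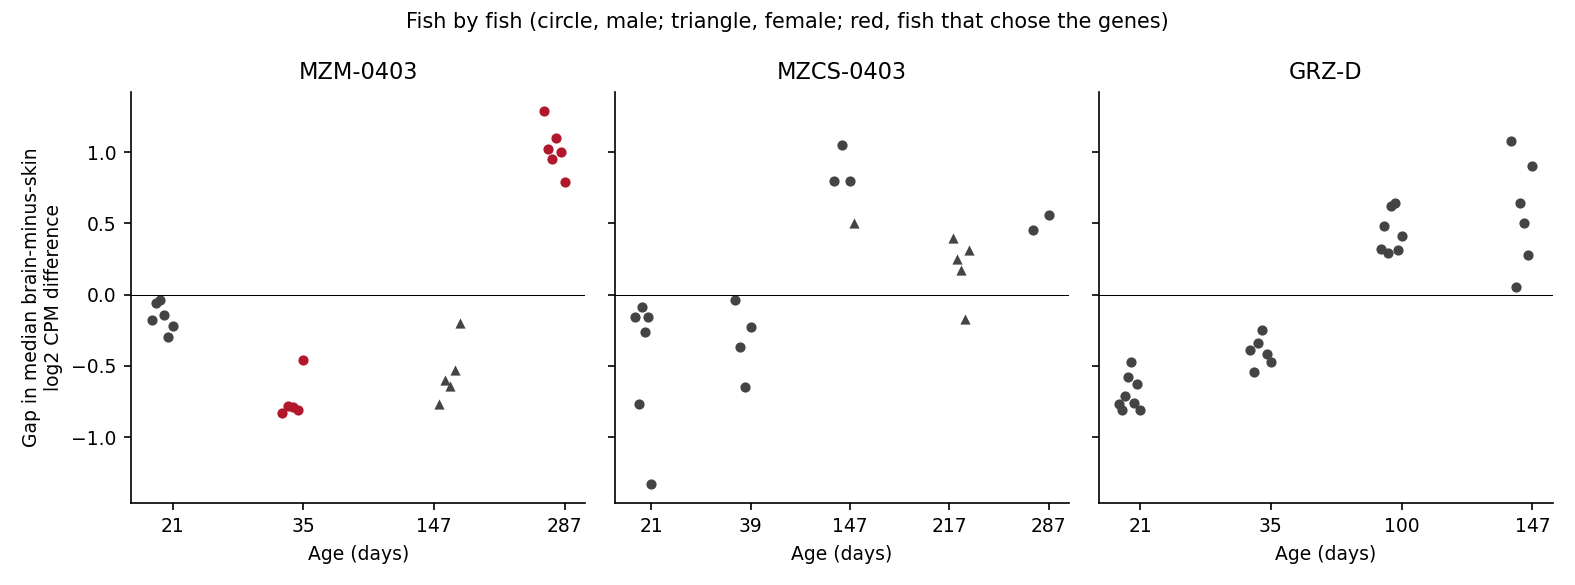
Gap between the medians of the brain-minus-skin log2 CPM difference of the 2711 positive and the 2380 negative genes, for each fish by strain and age in days, with circles for males and triangles for females. The fish that chose the genes are red, at -0.83 to -0.46 on day 35 and 0.79 to 1.29 on day 287. GRZ-D males of day 100 and day 147 lie above 0 and those of day 21 and day 35 below it.

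Within skin, the levels of the class that fell in skin only had a median log2 CPM of 3.61 at day 21, 4.15 at day 35, 4.13 in the females of day 147 and 3.03 at day 287, as medians over the fish. In GRZ-D skin the same genes had 3.97, 3.78, 3.05 and 2.99 at days 21, 35, 100 and 147. The class that rose in skin only had 4.18, 3.94, 4 and 4.79 at the same ages of MZM-0403, and 4.01, 4.03, 4.55 and 4.58 in GRZ-D. In MZM-0403, the day 21 skins lay between the day 35 and the day 287 skins for both classes, and the ranges of the 3 ages did not overlap. The day 35 and day 287 skins chose these classes, so the gap between those ages was fixed in advance. Where the day 21 skins lay between them is a description and no test of a course.

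The named genes did not all keep to this course. With libraries of all strains scaled together, Nfu_g_1_011837 had a median of 42.7 CPM in MZM-0403 skin at day 21, 33.6 at day 35, 0.429 in the females of day 147 and 0.486 at day 287, and the females ran from 0.215 to 29.1 CPM, so that their range covered the older males (0.216 to 1.95 CPM) and reached into that of day 35 (11.3 to 57.5 CPM). In GRZ-D skin it had 98.8, 124, 225 and 206 CPM at days 21, 35, 100 and 147. Nfu_g_1_016796 had 2.89, 1.83, 21.8 and 37.8 CPM in MZM-0403 skin at these ages, and at most 3.26 CPM as the median of any GRZ-D age. Nfu_g_1_009982 had 3.88 CPM in MZM-0403 brain at day 21, 0.307 at day 35, 0.316 in the females of day 147 and 21.1 at day 287, and in GRZ-D brain 2.27, 0.381, 6.04 and 12.4 CPM at days 21, 35, 100 and 147. The fish varied widely within several of these groups, from 0.0961 to 23.8 CPM in the MZM-0403 females and from 0.0948 to 13.2, 0.219 to 11.5 and 0.309 to 13.2 CPM in GRZ-D at days 21, 35 and 100. Nfu_g_1_014300 had median brain levels of 8.78, 5.71, 2.75 and 1.97 CPM at the same ages of MZM-0403, and 14.5, 9.53, 2.41 and 2.53 CPM at those of GRZ-D, so its brain level was highest at day 21 in both strains. In MZM-0403 males, Nfu_g_1_024908, Nfu_g_1_000441 and Nfu_g_1_017018 had day 21 brain medians of 2.92, 1.34 and 6.06 CPM. These were 28.9, 12.8 and 26.2 CPM at day 35 and 10.1, 5.98 and 10.6 CPM at day 287. Of the male ages, day 35 was thus the highest and day 21 the lowest for all of them. What raised them at day 35 was not tested.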

How the data were processed

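The authors deposited a table of raw whole-number counts per gene for each library. Per the labels' protocols, RNA of both tissues was isolated on RNeasy columns and sequencing libraries followed the TruSeq RNA v2 chemistry. The submitters' processing notes list bcl2fastq 1.8.4, STAR 2.5.1b and featureCounts 1.5.0. The genome build, annotation and strand setting are not given in the sources used here.

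All tests on counts used edgeR 4.0.16 under R 4.3.3 (TMM scaling, robust quasi-likelihood F-tests, 2-sided). Genes passed edgeR's filter by group at a minimum count of 10, and the removed genes held 0.016% to 0.115% of a library's counts. The contrast used a term for each fish and a brain-minus-skin term for each age. Age changes within a tissue were fitted on its 11 libraries over the same 21492 genes. P-values were adjusted by Benjamini-Hochberg over all genes tested. An SE was derived from the test, as |log2 change|/√F. For log2 CPM a prior count of 2 was added. Groups come from the labels and all replicates are separate fish. Brain and skin libraries are paired by fish in the labels, and the deviations of each fish's 2 libraries from their group means correlated at 0.09 to 0.27, in 11 of 11 fish best with the fish's own other tissue. Replicate libraries differed beyond sampling noise, so none was merged.

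Named genes met 2 common conditions: a call in the full fit and in each fit without a fish, and fish differences that did not overlap between the ages. The first 2 per direction were taken from 4 sets. Opposite genes were called in both tissues with opposite signs and were ranked by the smaller change. In each tissue they averaged 5 CPM or more at whichever age had the higher mean. Genes of one tissue were called there, had a change under 0.5 in the other and the same CPM minimum, and were ranked by their change. Genes of changed order had a mean log2 difference of at least 1 on either side of 0, in every fish, an average of 5 CPM or more in some group, and were ranked by the contrast. The contrast, lists and rule were chosen with earlier results of these data known. The method was tested on simulated data. Alternatives used limma 3.58.1 (voom with quality weights), DESeq2 1.42.0, other scalings and filters, and fits without each fish. GRZ-D of day 49 and MZCS-0403 females of day 287 were left out because some of their libraries resembled the other tissue. Only the fits with all 84 libraries of a tissue include them.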

Additional observations from a re-analysis of the deposited data

Results flagged for a closer look

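In 7 of 42 groups of 5 or 6 fish tested, a sample stood apart by Dixon's criterion, which chance alone meets in about 1 in 20 groups. For the brain-minus-skin log2 CPM difference these were, at day 287, replicate 3 for Nfu_g_1_005173 (3.14), replicate 4 for Nfu_g_1_015213 (5.21), replicate 6 for Nfu_g_1_016796 (2.85) and replicate 6 for Nfu_g_1_011837 (6.15). At day 35 they were replicate 12 for Nfu_g_1_017018 (-4.63) and for Nfu_g_1_024908 (-5.02). The sum of skin-dominant genes in brain stood apart in replicate 3 of day 287, at 15987 CPM.

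A tested difference between groups was found for the age change of 5091 genes between brain and skin, and for 2310 genes between the contrasts of MZM-0403 and GRZ-D. The contrast of the named genes was positive for Nfu_g_1_005173 (4.47), Nfu_g_1_015213 (4.03), Nfu_g_1_018652 (5.35), Nfu_g_1_011837 (5.56), Nfu_g_1_017037 (2.73), Nfu_g_1_001379 (2.22), Nfu_g_1_009982 (5.57) and Nfu_g_1_014733 (3.22). It was negative for Nfu_g_1_014300 (-2.79), Nfu_g_1_017018 (-2.80), Nfu_g_1_016796 (-3.72), Nfu_g_1_022778 (-3.67), Nfu_g_1_024908 (-2.18), Nfu_g_1_000441 (-1.68) and Nfu_g_1_023607 (-3.02). MZM-0403 less GRZ-D gave 2.34 for Nfu_g_1_015213, -2.93 for Nfu_g_1_016796, 6.02 for Nfu_g_1_011837, 2.25 for Nfu_g_1_014733 and -2.24 for Nfu_g_1_023607.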

How the results depend on the processing

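The contrast gave 3848 to 7987 called genes over 20 alternatives, the highest with limma voom, and 0 of the 5091 genes changed sign in 19 of them, while 1 did without day 35 replicates 7, 12 and 13 together. Leaving out each fish gave 3848 to 6823. Without the fish as replicate block 5380 genes were called, of which 4427 were among the 5091. Limma voom also gave 7841 genes for brain age, 1056 for brain-only and 572 for opposite changes, and 5615 for the difference between MZM-0403 and GRZ-D, for which DESeq2 gave 3655. Leaving out each fish gave 1742 to 3552 for that difference, 401 to 863 for brain-only changes and 166 to 514 for opposite changes. Without the 3 fish together, added after seeing the data, brain-only changes numbered 391 and opposite changes 186. The replicate numbers name fish and pair no fish across ages. As a replicate block within a tissue they left 712 calls in brain and 14 in skin, since few numbers are shared by the ages. The correlation within a fish fell by 0.0333 (exact permutation p = 0.0238) over more abundant genes (mean log2 CPM over 3), and without day 287 replicate 6 the root mean square rose by 0.0535 (exact permutation p = 0.0397). The leave-one-out range was -0.012 to -0.00104 for the correlation and 0.0281 to 0.0535 for the root mean square. The median contrast of skin-dominant genes was -0.58 for a log2 difference of 4, -0.11 for 2 and -0.08 without the 3 fish, and that of balanced genes 0 with RLE size factors and with DESeq2. The rule for the 15 named genes already required a call without each fish. Under the other alternatives the contrast missed the threshold for Nfu_g_1_017018 (-2.77, adjusted p = 0.0528) and Nfu_g_1_024908 (-2.15, adjusted p = 0.0784) with all MZM-0403 libraries in the fit. It also did so for Nfu_g_1_017037 (2.97, adjusted p = 0.0682) and Nfu_g_1_000441 (-1.43, adjusted p = 0.0828) without the 3 fish. The fit with all MZM-0403 libraries includes the females of day 147. Their brains reached 1820 CPM for Nfu_g_1_017018 (median 5.58) and 813 CPM for Nfu_g_1_024908 (median 7.33). No named value reversed. Of the least abundant quartile of genes 12.5% were called, and what part depth has in this was not tested.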
